A study of Mus musculus with 6 samples.

Results

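Genes of the extraembryonic endoderm and of the basement membrane that it makes were followed in mouse embryonic stem cells in which the coactivator p/CIP had been lowered. The set held 33 genes, taken as every row of the array whose gene symbol was exactly that of a listed gene. All 33 were measured, out of 19938 genes on the array. A gene was read from its brightest probe set, and 32 of the 33 had only 1 probe set.

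The samples were cultures of E14, a line of mouse embryonic stem cells that grows without feeders, and total RNA of each was hybridised to 1 array. There were 3 groups of 2 arrays, numbered replicate 1 and replicate 2 in each. The control group received pooled non-specific siRNAs by transfection, and the other groups with p/CIP siRNA 1 or with p/CIP siRNA 2, a pair of reagents against the same target. The sample titles tell siRNA 1 from siRNA 2, while the labels' treatment text gives both the same number, so values by siRNA rest on the titles. All 3 groups were wild-type cells of the same line and all were transfected. The labels give neither the time after transfection nor whether the 2 replicates of a group were grown apart. The p-values therefore reflect the spread among these 6 arrays alone, which may be technical.

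The primitive endoderm is the layer of the blastocyst that covers the epiblast, and GATA and SOX factors set up its programme while FGF and ERK signalling favours it over the epiblast. It gives rise to parietal endoderm, which lays down the thick basement membrane of the yolk sac, and to visceral endoderm, which takes up maternal proteins through megalin and cubilin and secretes plasma-type proteins. Embryonic stem cell cultures are known to contain a few cells that enter this lineage spontaneously, and stem cells themselves also make laminins, nidogens and type IV collagen.

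The cells carried the levels of their defining genes. On the log2 scale, Pou5f1 read between 12.68 and 12.91 on the 6 arrays and Nanog between 12.55 and 13.05. Ncoa3, the gene of p/CIP, read 12.33 and 12.28 with control siRNA, 10.71 and 10.93 with siRNA 1, and 10.71 and 10.92 with siRNA 2, a 2.81-fold fall over both siRNAs (limma adjusted p = 0.0287). Of the 33 genes, 20 had a mean above the median gene's 7.81. The file holds no background or detection values, so a low reading cannot be told from background. Array medians lay between 7.77 and 7.84. The array of siRNA 1 replicate 2 had a narrower interquartile range than the others (3.13 against 3.33 to 3.45).

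After p/CIP knockdown, no transcription factor, receptor, matrix or secreted protein gene of the set passed the test. For both siRNAs together against control, 0 of 33 were called at an adjusted p under 0.05 (limma, adjusted over all 19938 genes), where 0.0702% of all genes were. At an unadjusted p under 0.05 there were 2 members, Trf and Nid1, both lower, where 8.72% of all genes reached that level in either direction and 4.86% were lower at it. With the replicate number as a block, 0 of 33 were called, against 0.341% of all genes. The median difference of the members was 0.11 on the log2 scale, against 0.01 for all genes, and 24 of 33 were higher than control, as were 52.3% of all genes. That median moved when single arrays were left out, which also leaves the replicate numbers unbalanced. It was -0.02 without control replicate 1, 0.0068 without siRNA 1 replicate 2, 0.04 without siRNA 2 replicate 2, and 0.18 to 0.23 without any 1 of the other 3. Taken within replicate numbers, which stay balanced, it was 0.06 at replicate 1 and 0.12 at replicate 2. Because RNA came from whole cultures, more cells of a type and more RNA per cell cannot be told apart in any difference given here.

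Most of the set differed more with the replicate number than with the siRNA. Arrays numbered replicate 2 read above those numbered replicate 1 for 30 of 33 members, as for 57.5% of all genes, with a median of 0.22 against 0.03 for all genes. In this comparison, which keeps the 3 groups as terms, 1 member rose: Srgn, serglycin, a proteoglycan core protein made by parietal endoderm, by 1.88-fold (log2 0.91, SE 0.0590, limma adjusted p = 0.0368). Among all genes 0.0251% were called, 5 in number and all higher. At an unadjusted p under 0.05 there were 18 members, all higher, a share of 54.5% where 15.5% of all genes were higher at that level and 24.5% reached it in either direction. After adjustment 8 members lay under 0.1 and 16 under 0.15, and the number called depended on the model: 0 when all probe sets were tested, 6 after quantile normalization or cyclic loess, and 17 with a mean-variance trend (51.5% of members, against 8.54% of all genes). Of those 17, 16 were higher and 1, Apoe, was lower, while over all genes the trend called 734 higher and 968 lower. The labels do not say what the replicate number stands for. Array codes in the labels cross it: by code, siRNA 1 replicate 2 goes with replicate 1 of the other groups.

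**Figure D1:**
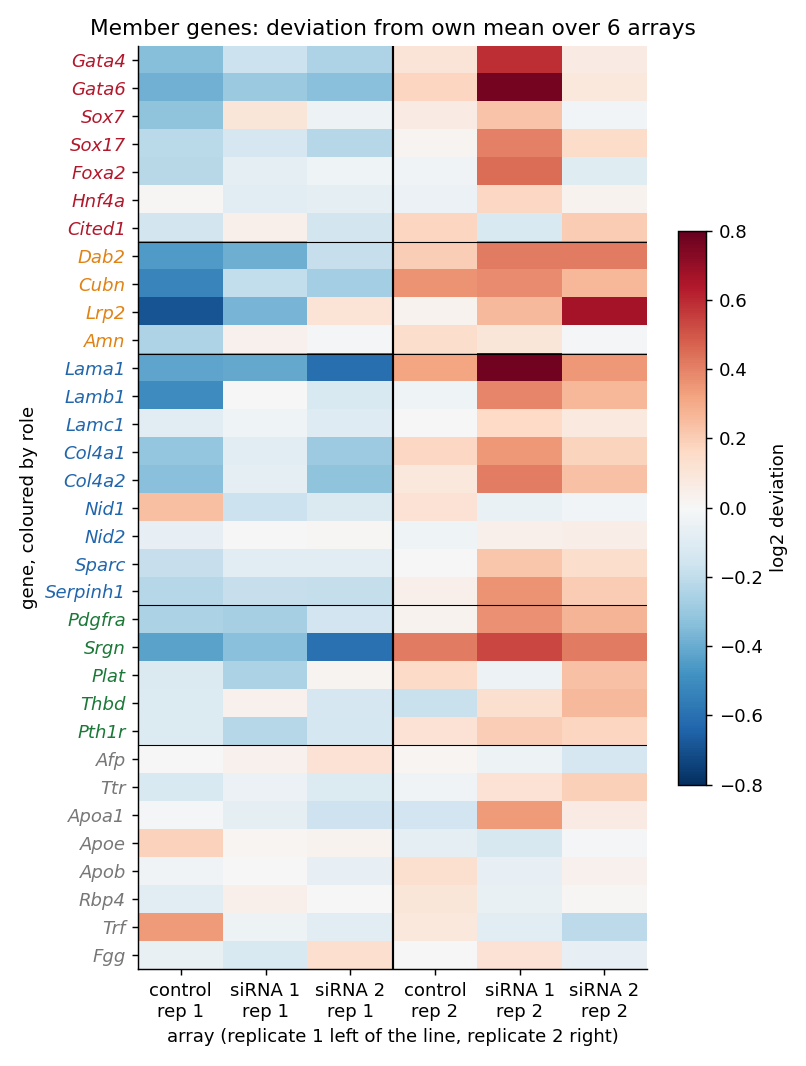
Level of each of the 33 genes on each of the 6 arrays, as the log2 difference from that gene's mean over the arrays (colour, red above and blue below the mean), with genes in rows by role and the 3 replicate 1 arrays left and the 3 replicate 2 arrays right of the line. Replicate 2 columns are red and replicate 1 columns blue over most rows, among them Srgn, Lama1, Gata6 and Dab2, while most rows of the secreted proteins show no such split.

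To show what lies in front of the genes that differed most with the replicate number, 5 upstream windows are given. They are the members of smallest p in that comparison that have an entry, leaving out the type IV collagen pair. Any window lying for more than a short stretch in an annotated gene, its own included, was also left out. Lamb1 was passed over for such an overlap. Each is the 250 bases before a RefSeq start on GRCm38.p6, read 5' to 3' on the gene's strand: Srgn at chr10:62527446-62527695 (minus), Dab2 at chr15:6299539-6299788 (plus), Lrp2 at chr2:69586030-69586279 (minus), Cubn at chr2:13491877-13492126 (minus) and Serpinh1 at chr7:99353240-99353489 (minus). Capitals mark matches to 5 short motifs searched on both strands: GATAA (the core bound by GATA factors), ACAAT (a SOX core), CCAAT (bound by NF-Y), GGGCGG (the GC box) and TATAAA (the TATA box).
Srgn: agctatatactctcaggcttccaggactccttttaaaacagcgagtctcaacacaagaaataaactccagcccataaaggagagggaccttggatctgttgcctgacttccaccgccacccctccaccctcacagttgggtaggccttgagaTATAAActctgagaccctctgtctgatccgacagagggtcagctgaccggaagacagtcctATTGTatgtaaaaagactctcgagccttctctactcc
Dab2: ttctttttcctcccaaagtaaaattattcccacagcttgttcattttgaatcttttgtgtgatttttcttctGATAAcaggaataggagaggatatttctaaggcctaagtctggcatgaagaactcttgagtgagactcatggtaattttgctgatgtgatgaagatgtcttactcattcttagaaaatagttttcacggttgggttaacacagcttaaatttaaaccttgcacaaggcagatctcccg
Lrp2: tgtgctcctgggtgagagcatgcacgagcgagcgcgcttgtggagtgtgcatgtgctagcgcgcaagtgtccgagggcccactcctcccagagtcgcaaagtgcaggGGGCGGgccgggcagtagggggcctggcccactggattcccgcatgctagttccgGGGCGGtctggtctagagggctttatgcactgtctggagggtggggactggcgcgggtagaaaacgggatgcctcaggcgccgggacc
Cubn: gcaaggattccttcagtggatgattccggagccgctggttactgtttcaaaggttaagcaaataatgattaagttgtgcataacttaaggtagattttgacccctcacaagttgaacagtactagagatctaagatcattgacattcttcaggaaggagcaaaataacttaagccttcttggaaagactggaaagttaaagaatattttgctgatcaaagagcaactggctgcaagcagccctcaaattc
Serpinh1: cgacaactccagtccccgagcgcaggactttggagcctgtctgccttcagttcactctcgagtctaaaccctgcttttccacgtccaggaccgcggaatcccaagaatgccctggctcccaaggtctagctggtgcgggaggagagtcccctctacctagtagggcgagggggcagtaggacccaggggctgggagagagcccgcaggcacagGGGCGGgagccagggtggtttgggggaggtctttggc
These windows share no motif across all 5. That of Srgn holds a TATA box 98 bases before the start and a SOX core, on the opposite strand, 37 bases before it. Dab2 has 1 GATA core, 178 bases before the start. Lrp2 has GC boxes 143 and 88 bases before the start, and Serpinh1 has 1 at 37 bases. In the Cubn window there was no match to these letters.

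Over all members with an entry (22 of 33, with 34 windows), the GATA core was in 20.6% of windows, against 22.6% of all 32851 windows of that length. The SOX core was in 8.82% against 27.7%, CCAAT in 35.3% against 33.8%, the GC box in 38.2% against 32.7% and the TATA box in 23.5% against 12.4%. Windows of 1 gene overlap and are not independent, and a match is a description of the letters, not of a bound site. Col4a1 and Col4a2, the genes of the alpha chains of type IV collagen, start on opposite strands of chromosome 8 (11312826 on the minus strand and 11312805 on the plus strand, GRCm38.p6), so that the first 22 bases of each gene overlap those of the other.

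The lineage transcription factors lay higher in replicate 2, and 0 of 7 were called in limma in either comparison. Of all genes, 0.0702% were called with knockdown and 0.0251% with the replicate number. Gata6, the zinc finger factor that starts the primitive endoderm programme, read 9.34 and 9.89 with control siRNA (replicate 1 and replicate 2), 9.42 and 10.48 with siRNA 1, and 9.39 and 9.80 with siRNA 2. All 3 replicate 2 arrays lay above all 3 replicate 1 arrays, and the array of siRNA 1 replicate 2 was the highest. The replicate difference was 0.68 (SE 0.125, 1.60-fold, limma adjusted p = 0.108) and ran from 0.49 to 0.81 over the fits that leave out an array. Against control, Gata6 differed by 0.16 (adjusted p = 0.894) over both siRNAs, and the arrays of the groups overlapped.

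Gata4, which acts beside Gata6 in the same layer, read 8.50 and 8.95, then 8.67 and 9.43, then 8.59 and 8.91 in the same order of groups. Its replicate difference was 0.51 (adjusted p = 0.108), and its difference from control 0.18 (adjusted p = 0.831). Sox17, an HMG-box factor of endoderm, read 6.70 and 6.94, 6.79 and 7.32, and 6.69 and 7.07. These 3 factors had the same order of arrays by number, with no overlap between replicate 2 and replicate 1. Sox17 differed by 0.38 (adjusted p = 0.108) with the replicate number and by 0.14 (adjusted p = 0.823) with knockdown, or 0.0114 without siRNA 1 replicate 2.

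The other factors followed the replicate number less closely. Sox7, a relative of Sox17, read 7.61 and 8.0003 in the controls, 8.03 and 8.16 with siRNA 1, and 7.89 and 7.91 with siRNA 2, so that only the first control array stood low. Foxa2, a forkhead factor of visceral and definitive endoderm, read 7.69 and 7.89, 7.84 and 8.36, and 7.88 and 7.82. Its highest reading was on the array of siRNA 1 replicate 2, the one with the narrower range, and its replicate difference of 0.22 (adjusted p = 0.274) was 0.07 without siRNA 1. Against control it was at 0.18 (adjusted p = 0.737), and at 0.05 without that array. Hnf4a, the nuclear receptor of visceral endoderm, stayed between 7.29 and 7.53 on all arrays. For Cited1, a coactivator that binds CBP and p300, readings lay between 8.65 and 9.01.

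The endocytic receptor complex of visceral endoderm showed the highest group median of replicate differences, 0.65 over its 4 genes. Lrp2 (megalin), the large scavenger receptor of the complex, read 9.01 and 9.73 with control siRNA, 9.32 and 9.96 with siRNA 1, and 9.81 and 10.36 with siRNA 2. In each group the second array lay above the first, by 0.64 over the 3 groups (SE 0.0573, 1.55-fold, limma adjusted p = 0.0858). Within each replicate number the order of groups was also the same, control lowest and siRNA 2 highest. Lrp2 was 0.50 above control over both siRNAs (SE 0.267, 1.41-fold, adjusted p = 0.647, and 0.0505 with the replicate number as a block). Leaving out control replicate 1 gave 0.14 and leaving out control replicate 2 gave 0.86, and the difference lay between 0.34 and 0.65 without any 1 of the knockdown arrays.

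Cubn (cubilin), the receptor that binds megalin, read 7.41 and 8.30, 7.74 and 8.32, and 7.67 and 8.21. Dab2, the clathrin adaptor that drives their uptake, read 9.29 and 9.94, 9.35 and 10.16, and 9.56 and 10.16. Neither gene's replicate 2 arrays overlapped with its replicate 1 arrays. The differences were 0.67 for Cubn (adjusted p = 0.0955) and 0.69 for Dab2 (adjusted p = 0.0858), against 0.13 (adjusted p = 0.913) and 0.19 (adjusted p = 0.858) for knockdown. Dab2 is the 1 member with a second probe set, a dim one that read 4.45 to 4.62 and whose replicate difference was 0.05; at that level it may be at background. Amn (amnionless), the membrane partner of cubilin, read 7.53 and 7.92 in the controls and 7.77 to 7.87 on the knockdown arrays.

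**Figure D2:**
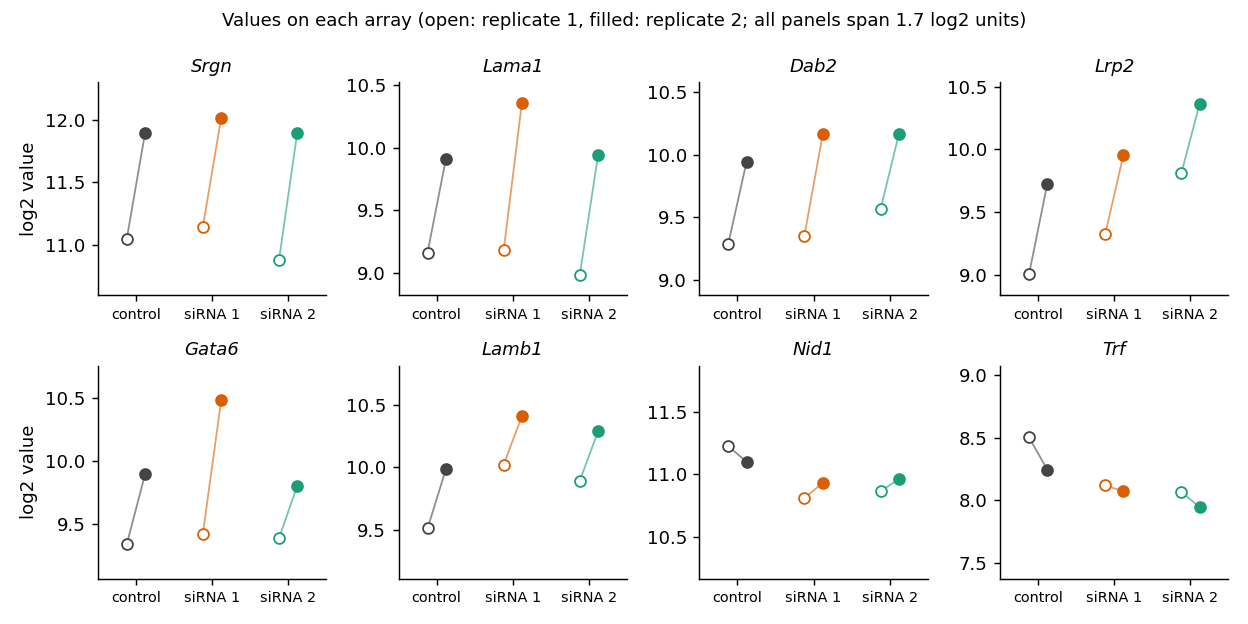
Log2 level of 8 genes on each of the 6 arrays (1 panel a gene, all of the same span), grouped by siRNA on the horizontal axis, with replicate 1 (open point) and replicate 2 (filled point) of a group joined by a line. The filled point is the higher one in all 3 groups for Srgn, Lama1, Dab2, Lrp2, Gata6 and Lamb1, while Trf and Nid1 stand lower on the 4 knockdown arrays than on both control arrays.

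Basement membrane genes split by subunit. Lama1, Lamb1 and Lamc1 encode the alpha, beta and gamma chains of the laminin trimer of the early embryo. Lama1 read 9.16 and 9.91 in the controls, 9.18 and 10.36 with siRNA 1, and 8.98 and 9.94 with siRNA 2, the widest replicate difference of the 33 genes (0.96, SE 0.0887, 1.94-fold, limma adjusted p = 0.0858). Lamb1 read 9.51 and 9.98, 10.02 and 10.41, and 9.89 and 10.29. It lay above control at both replicate numbers, by 0.44 and 0.36, while siRNA 2 replicate 1 lay below control replicate 2. Over both siRNAs this was a difference of 0.40 (SE 0.181, 1.32-fold, adjusted p = 0.592, and 0.0629 with the replicate block). It was 0.17 without control replicate 1, 0.64 without control replicate 2, and 0.31 to 0.50 without any 1 of the knockdown arrays. Lamc1 read 11.11 and 11.20, 11.17 and 11.36, and 11.10 and 11.28, with no overlap between replicate numbers and a difference of 0.15 (adjusted p = 0.166). The 3 chains of 1 protein thus had replicate differences of 0.96, 0.42 and 0.15.

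Both type IV collagen genes had the same order of replicate numbers in every group. Col4a1 read 8.44 and 8.92, 8.66 and 9.10, and 8.46 and 8.93, and Col4a2 read 8.47 and 8.89, 8.73 and 9.22, and 8.48 and 9.04. Replicate differences were 0.46 (SE 0.0507) for Col4a1 and 0.49 (SE 0.0553) for Col4a2, each with a limma adjusted p of 0.0955. The SD of Col4a1 within groups was 0.327, and 0.0158 once the replicate number was a term, so its replicate difference was nearly equal in the 3 groups. Serpinh1, the procollagen chaperone, read 8.44 and 8.71, 8.48 and 9.03, and 8.48 and 8.87 (0.40, adjusted p = 0.108). Sparc, a collagen-binding matrix protein abundant in parietal endoderm, read 12.69 and 12.87, 12.78 and 13.10, and 12.79 and 13.02 (0.24, adjusted p = 0.116). For all 4 of these genes the replicate 2 arrays lay above the replicate 1 arrays without overlap.

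The nidogens, which link laminin to type IV collagen, had the smallest replicate differences of the basement membrane genes, 0.03 for Nid1 and 0.04 for Nid2. Nid1 read 11.22 and 11.10 in the controls, 10.81 and 10.93 with siRNA 1, and 10.87 and 10.96 with siRNA 2. All 4 knockdown arrays lay below both controls, a difference of -0.27 (SE 0.0789, 1.21-fold, limma adjusted p = 0.386, and 0.16 with the replicate block). Nid2 stayed between 11.65 and 11.77 and read higher on all 4 knockdown arrays than on both controls, by 0.07. In each group Nid2 read higher in replicate 2 than in replicate 1, which Nid1 did not.

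Genes of parietal endoderm and the cell surface were led by Srgn, which read 11.05 and 11.89 in the controls, 11.15 and 12.01 with siRNA 1, and 10.88 and 11.90 with siRNA 2. The replicate 2 array lay above the replicate 1 array by 0.84, 0.87 and 1.01 in the 3 groups, with no overlap. Against control Srgn differed by 0.01 (95% interval -0.88 to 0.90), and by the same with the replicate block, where the interval was -0.14 to 0.17. Leaving out an array leaves its partner unpaired, so the replicate difference then rests on the other groups alone. That of Srgn ran from 0.86 to 0.94 over such fits, and its call did not hold in all of them. Pdgfra, the receptor that marks primitive endoderm, read 6.95 and 7.23, 6.93 and 7.56, and 7.05 and 7.47 (0.45, adjusted p = 0.108). Pth1r, the receptor of parathyroid hormone-related protein on parietal endoderm, had a difference of 0.32 (adjusted p = 0.108).

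Plat and Thbd, which act in fibrinolysis and coagulation, complete this group. Plat (tissue plasminogen activator) read 7.42 and 7.69, 7.29 and 7.50, and 7.56 and 7.77, so siRNA 1 lay below and siRNA 2 above control at each replicate number. It differed by 0.27 between siRNA 2 and siRNA 1 (adjusted p = 0.734). Thbd (thrombomodulin) read 6.52 and 6.45, 6.66 and 6.75, and 6.49 and 6.89, with a difference from control of 0.22 (adjusted p = 0.646), which was 0.12 without siRNA 2 replicate 2.

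The secreted plasma-type proteins had the lowest median replicate difference of the 5 roles, 0.03 over 8 genes, with 5 higher in replicate 2. Of those 5, Apob, Rbp4 and Fgg had the opposite sign after quantile normalization or cyclic loess. Trf (transferrin), the iron carrier, read 8.50 and 8.24 in the controls, 8.12 and 8.07 with siRNA 1, and 8.07 and 7.95 with siRNA 2. All 4 knockdown arrays lay below both controls, with a difference of -0.41 at replicate 1 and -0.24 at replicate 2 when each is taken against its own control. The difference over both siRNAs was -0.32 (SE 0.0931, 1.25-fold, limma adjusted p = 0.381, and 0.109 with the replicate block), and it ran from -0.45 to -0.19 over the fits without 1 array, both ends being those without a control array. In the fit without the block this adjusted p was the smallest of the 33 genes. Apoe, a lipid carrier, read 12.68 and 12.42, 12.51 and 12.36, and 12.52 and 12.48, and was the only member whose replicate 2 arrays all lay below its replicate 1 arrays. Apoa1, the main protein of high-density lipoprotein, read 7.13 and 6.99, 7.07 and 7.49, and 6.98 and 7.21. The other 5 secreted proteins, among them the fetal albumin relative Afp (6.10 to 6.35) and the thyroxine carrier Ttr (5.39 to 5.70), read between 5.23 and 6.86.

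Arrays without overlap were counted over the set. For the replicate number, 15 of 33 members (45.5%) had all 3 replicate 2 arrays above all 3 replicate 1 arrays, against 13.2% of all genes, and 1 member, Apoe, had them below, against 8.57%. In each of the 3 groups separately, 21 members (63.6%) read higher in replicate 2, against 28.5% of all genes. For knockdown, 1 member (Nid2) had all 4 siRNA arrays above both controls, against 8.83% of all genes, and 2 (Nid1 and Trf) had them below, against 10.1%. The shares for knockdown lie below the background. For the replicate number, the shares higher in replicate 2 lie above it and the share lower in replicate 2 lies below it. Since the members differ with the replicate number, the arrays were also compared within it. Each knockdown array lay above the control array of its own number for 9 members (27.3%, against 17.2% of all genes): Dab2, Lrp2, Lamb1, Col4a1, Col4a2, Nid2, Sparc, Serpinh1 and Ttr. Below it lay 2 members (6.06%, against 18.5% of all genes), Nid1 and Trf.

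**Figure D3:**
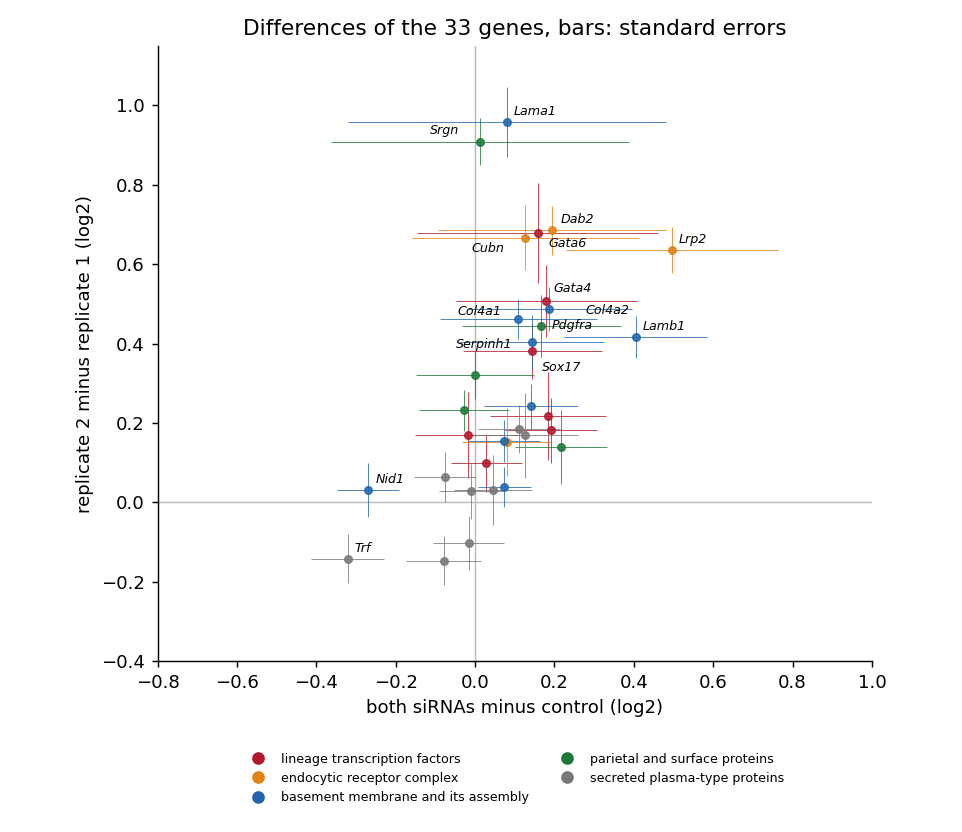
Each of the 33 genes by its log2 difference of both siRNAs from control (horizontal axis) and of replicate 2 from replicate 1 (vertical axis), coloured by role, with bars of 1 standard error. Srgn and Lama1 lie highest with horizontal differences near 0, Lrp2 and Lamb1 lie to the right, and Trf and Nid1 lie to the left.

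Taken within groups, the members' median replicate difference was 0.24 in the controls, 0.32 with siRNA 1 and 0.30 with siRNA 2, where all genes had -0.01, 0.04 and 0.03. The median deviation of the members from their own means was -0.18 and 0.07 in controls, -0.08 and 0.22 for siRNA 1, and -0.12 and 0.14 for siRNA 2, so the replicate 2 array was the higher one in every group. Taken within replicate numbers, the members' median difference from control was 0.06 at replicate 1 and 0.12 at replicate 2, with 24 of 33 higher at each (44.2% and 56.7% of all genes). Within-group spread reflected this: the members' median SD was 0.202 with groups alone and 0.0968 with the replicate number as a term, against 0.1 and 0.0711 for all genes.

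Each siRNA taken alone also called no member in limma. With siRNA 1, 0 of 33 passed (0.0702% of all genes did) and 2 had an unadjusted p under 0.05 (12.1% of all genes), while 24 were higher than control (55.5% of all genes). Nid1 was at -0.29 (adjusted p = 0.321), Trf at -0.28 (0.396), Lamb1 at 0.47 (0.426), Sox7 at 0.29 (0.431) and Foxa2 at 0.31 (0.471). With the replicate block Lamb1 passed (adjusted p = 0.0439), where 1.21% of all genes did. With siRNA 2, 0 of 33 passed (0% of all genes did) and 2 had an unadjusted p under 0.05 (5.25% of all genes), while 23 were higher than control (47.2% of all genes). Lrp2 was at 0.72 (adjusted p = 0.958), and with the replicate block it passed (0.0484), where 0.130% of all genes did. Trf was at -0.37 (0.667) and Nid1 at -0.25 (0.835). Both siRNA comparisons use the same control arrays.

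Between siRNA 2 and siRNA 1, 0 of 33 members were called, as were 0% of all genes, and 0 members had an unadjusted p under 0.05, against 6.90% of all genes. The replicate block called 0 members and 0.0752% of all genes. Higher with siRNA 2 were 13 of 33 members and 41.9% of all genes. Beside Plat, the members of smallest p were Foxa2 (-0.25), Lrp2 (0.45), Sox7 (-0.19) and Apoa1 (-0.18). A missed threshold with 2 arrays a group does not show that the siRNAs act alike: the 95% interval of the difference was -0.29 to 1.18 for Lrp2 and -0.04 to 0.59 for Plat.

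Other genes of the same tissues followed the replicate number by smaller amounts. Of 33 measured basement membrane and matrix-processing genes outside the set, 24 were higher in replicate 2 (median 0.12), 11 of them and 2 lower ones at an unadjusted p under 0.05, where all genes had 57.5% higher, 15.5% higher at that level and 9.00% lower at it. They were led by Tinagl1, a basement membrane glycoprotein (0.52, adjusted p = 0.0955), the integrin gene Itga3 (0.32, 0.108) and the laminin gene Lama5 (0.26, 0.108). Of 29 other parietal and visceral endoderm genes, 24 were higher (median 0.11), led by Fxyd3, a regulator of the sodium pump (0.49, 0.0955), the keratin gene Krt8 (0.43, 0.106) and the retinol transporter Stra6 (0.41, 0.108). Against control, 27 of the 33 matrix genes were higher (median 0.07), with Pxdn, the peroxidase that cross-links type IV collagen, at 0.28 (0.386), and the endoderm genes had a median of 0.02. None of these genes was called in limma in either comparison, where 0.0702% of all genes were with knockdown and 0.0251% with the replicate number. At an unadjusted p under 0.05 against control there were 4 matrix genes, all higher, and 3 higher and 1 lower endoderm genes, where 3.86% of all genes were higher and 4.86% lower at that level.

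A list of FGF and ERK signalling genes together with epiblast genes that oppose the endoderm fate had mostly lower values. Of its 17 measured genes, 4 were higher in replicate 2 (median -0.05) and 3 were higher with knockdown (median -0.12), with 0 called in limma and 5 lower at an unadjusted p under 0.05 in each comparison (9.00% of all genes for the replicate number and 4.86% for knockdown). Called in limma were 0.0251% of all genes for the replicate number and 0.0702% for knockdown. The list holds Nanog, Prdm14, Fgf4, Klf5 and Sall4, which are also on the pluripotency list, so the lists are not independent. Fgf4, the ligand from the epiblast, was at -0.27 with the replicate number (adjusted p = 0.118), the ERK target Etv4 at -0.22 (0.142) and Prdm14, a repressor of the endoderm fate in stem cells, at -0.40 (0.112). Against control Prdm14 was at -0.73 (0.316), Nanog at -0.33 (0.333) and the feedback inhibitor Spry4 at -0.28 (0.348), while the ERK target Dusp6 was at 0.16 (0.613).

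Lists of other cell states were also read by replicate number, with 0 genes called in any of them, where 0.0251% of all genes were. Of 20 core and naive pluripotency genes, 2 were higher in replicate 2 (median -0.11), 9 lower ones having an unadjusted p under 0.05 in limma (9.00% of all genes). Among them Klf4 was at -0.22 (0.118). Of 15 fibroblast markers, 13 were higher in replicate 2 (median 0.19, 7 higher at an unadjusted p under 0.05, against 15.5% of all genes), among them the smooth muscle genes Acta2 (0.69, adjusted p = 0.108) and Tagln (0.51, 0.106) and the collagen gene Col1a2 (0.24, 0.13). Of 10 trophoblast markers, 7 were higher (median 0.13), among them Krt7 (0.36, 0.108) and Cdx2 (0.24, 0.13). At an unadjusted p under 0.05, 4 trophoblast markers were higher and 1 lower, against 15.5% and 9.00% of all genes. The 11 markers of definitive endoderm and primitive streak had a median of 0.03. As the median deviation of the list from its genes' means, the fibroblast markers read from -0.07 to -0.06 on the replicate 1 arrays and from -0.02 to 0.13 on the replicate 2 arrays. The pluripotency genes read 0.28 and 0.13 in the controls, -0.04 and -0.17 with siRNA 1, and -0.04 and -0.14 with siRNA 2. The part of these cell types in the readings of the 33 genes was not tested.

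With knockdown, the pluripotency list had a median of -0.33, and 18 of its 20 genes were lower than control. In limma 2 were called lower, Nr0b1 (-0.87, limma adjusted p = 0.0347) and Tbx3 (-0.91, 0.0388), where 0.0702% of all genes were called. At an unadjusted p under 0.05, 12 were lower, a share of 60% against 4.86% of all genes. With the replicate block 4 were called, against 0.341% of all genes, adding Klf4 (-0.78, limma adjusted p = 0.018) and Esrrb (-0.50, 0.0386). Fibroblast markers had a median of 0.06 and trophoblast markers of 0.12, with 0 called in limma (0.0702% of all genes were). Higher than control were 10 of 15 fibroblast and 9 of 10 trophoblast markers, against 52.3% of all genes. At an unadjusted p under 0.05, 2 fibroblast and 3 trophoblast markers were higher and 0 lower, where 3.86% of all genes were higher. Thy1 was at 0.35 (0.438) and Plet1 at 0.41 (0.277). Taken by siRNA, 9 of 10 trophoblast markers were higher with siRNA 1 (median 0.24) and 5 of 10 with siRNA 2 (median 0.01). Of the 15 fibroblast markers, 10 were higher with siRNA 1 and 11 with siRNA 2. All genes had 55.5% higher with siRNA 1 and 47.2% with siRNA 2. The fibroblast list's widest difference was that of Acta2, at -0.47 (0.685) over both siRNAs and at -1.22 with siRNA 1 (0.289, and 0.0324 with the replicate block). With siRNA 2 Acta2 had the opposite sign, at 0.28 (limma adjusted p = 0.999), so the pooled value joins unlike differences. For the definitive endoderm list the median over both siRNAs was -0.02, with Eomes at 0.29 (0.401).

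**Figure D4:**
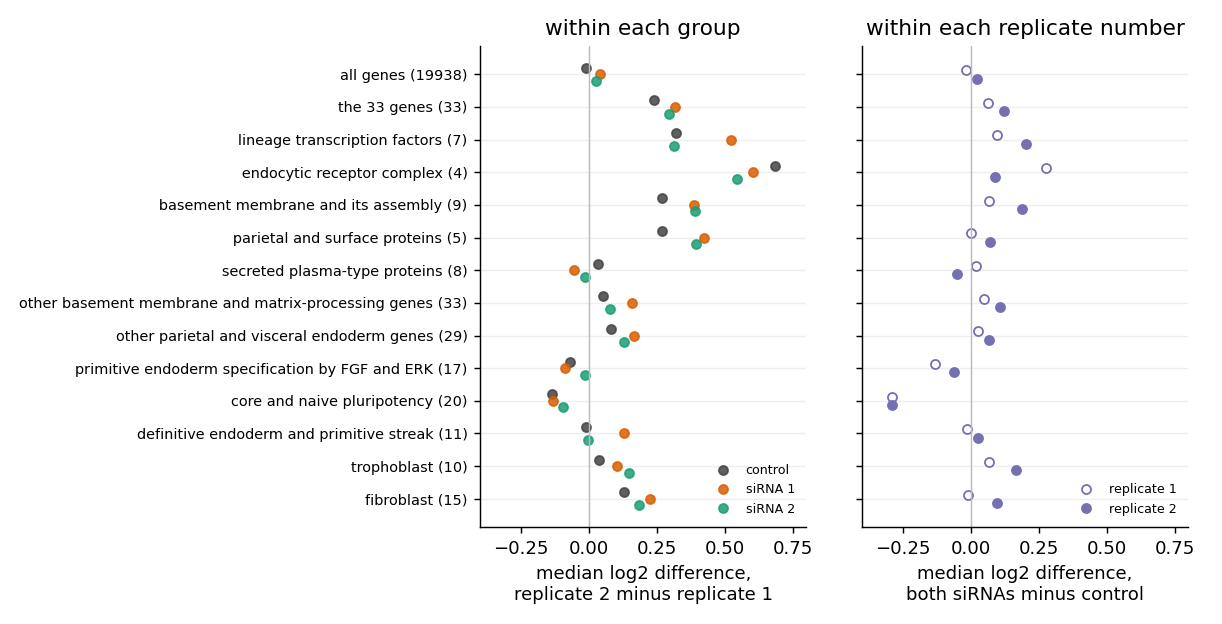
Median log2 difference over each gene list (rows, with the number of genes measured), on the left of replicate 2 from replicate 1 within each of the 3 groups and on the right of both siRNAs from control within each replicate number. The 33 genes lie at 0.24, 0.32 and 0.30 on the left and at 0.06 and 0.12 on the right, and the pluripotency list lies to the left of 0 in both panels.

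The 4 other genes called with the replicate number, chosen after their values were seen, were Glipr1 (3.14-fold, limma adjusted p = 0.0368), Slco2a1, a prostaglandin transporter (2.07-fold, 0.0406), Nxf7 (2.06-fold, 0.033) and Hs3st1, a heparan sulfate sulfotransferase (1.62-fold, 0.0475). None of these 4 was on a list used here.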

How the data were processed

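Values are the authors' deposited log2 intensities, 1 per probe set and array; per the submitters' processing notes Partek was used, while normalization, background correction and log base were not stated. The scale was taken as log2 from the range of values (2.69 to 14.6). The labels name 1 dye, Cy3. Of 35556 probe sets, 21789 carried 1 gene symbol in GEO's platform annotation, 1621 several and 12146 none, and only the first were used. Where a gene had several probe sets (999 genes), the one with the highest mean was kept, giving 19938 genes.

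Differences were fitted with limma 3.58.1 in R 4.3.3 (lmFit, contrasts.fit, eBayes, two-sided) over all 6 arrays, with 1 coefficient per group (3 residual and 3.84 prior degrees of freedom). Replicate 2 was compared with replicate 1 by adding the replicate number to the groups (2 residual and 3.89 prior degrees of freedom). P-values were adjusted by Benjamini-Hochberg over all genes, and called under 0.05. The scripts were tested on simulated data first. No 2 arrays held identical values.

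Equal replicate numbers were taken to pair arrays, since deviations from group means correlated at 0.464, 0.407 and 0.461 between groups. This pairing comes from the data, not the labels, and with 2 arrays a group the check is weak. The array codes cross the replicate numbers for siRNA 1, and whether codes or numbers mark a batch is not stated. For the members, values with the number as a block are given where they change a call, and also for Trf, Nid1, Lamb1, Lrp2 and Srgn. Of genes outside the set they are given for some only, and the block changed other calls that are not listed.

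The members, lists and roles were chosen with earlier results of these data known. Named with all 6 values are the members of smallest p in each comparison, the lineage factors and the basement membrane subunits, with further members for completeness. From each marker list the genes given with values are mostly among the 3 of smallest p, for both siRNAs or for the replicate number. Dusp6 and Esrrb are not. Promoter windows are from RefSeq on GRCm38.p6, matched by symbol. The precision is limited by the number of arrays. Alternatives tried were 3 array scalings, other choices of probe sets, a filter on dim genes, a variance trend, blocks by replicate number and by array code, and leaving out each array.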

Additional observations from a re-analysis of the deposited data

How the results depend on the processing

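With 2 arrays a group, and with no background values, small differences among the dimmer members cannot be resolved. Of the members, 0 were called for both siRNAs against control under any setting tried, and the counts over all genes (14) became 0 over all probe sets or with array codes as a block, 38 among genes above the median level, 74 with a variance trend and 68 with the replicate block. For siRNA 1 the 14 genes became 26 with medians aligned, 39 with cyclic loess, 0 over all probe sets, 85 above the median level, 154 with a trend, 0 with the array code block and 241 with the replicate block, which called 1 member, Lamb1. For siRNA 2 the 0 genes became 1 with medians aligned, 2 with quantile or cyclic loess scaling, 11 above the median level, 18 with a trend and 26 with the replicate block, which called 1 member, Lrp2. Between the siRNAs the 0 genes became 1 with medians aligned, 4 above the median level, 23 with a trend and 15 with the replicate block. For the replicate number the 5 genes became 26 with quantile and 31 with cyclic loess scaling, 0 over all probe sets, 881 above the median level, 1702 with a trend and 2508 with the array code block. The 1 member called became 6 with quantile or cyclic loess scaling (Col4a1, Col4a2, Dab2, Lama1, Lrp2 and Srgn), 0 over all probe sets, 12 of 20 above the median level (60% against 8.84% of genes), 17 with a trend (16 higher and Apoe lower, 51.5% against 8.54%) and 17 with the array code block (51.5% against 12.6%). For the replicate number, the array code block adds a further term to the fit of the 6 arrays. It therefore leaves fewer than the 2 residual degrees of freedom of the main fit. The members' median replicate difference was 0.41 above the median level. The cause of these changes was not tested.

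Leaving out 1 array at a time gave 0 to 37 genes for both siRNAs, 0 to 437 for siRNA 1, 0 to 10 for siRNA 2, 0 to 2 between the siRNAs and 0 to 10 for the replicate number, with 0 to 2 members called in the last (Lama1 and Srgn without either siRNA 1 array) and 0 in the others. The members' median ran from -0.02 to 0.23 for both siRNAs, from -0.04 to 0.32 for siRNA 1, from -0.06 to 0.19 for siRNA 2, from -0.19 to 0.07 between the siRNAs and from 0.21 to 0.25 for the replicate number. Each such fit against control also leaves the replicate numbers unbalanced. For the replicate number, leaving out either array of a group gives the same fit, as the whole group drops out of the estimate. Over all 33 members, the sign against control turned for Gata4 (-0.0450 to 0.40), Gata6 (-0.12 to 0.44), Sox7 (-0.0038 to 0.39), Hnf4a (-0.0331 to 0.0905), Cited1 (-0.18 to 0.14), Dab2 (-0.13 to 0.52), Cubn (-0.32 to 0.57), Amn (-0.11 to 0.27), Lama1 (-0.29 to 0.45), Col4a1 (-0.13 to 0.35), Col4a2 (-0.0219 to 0.40), Srgn (-0.41 to 0.43), Plat (-0.16 to 0.11), Pth1r (-0.11 to 0.11), Afp (-0.0799 to 0.0469), Apoe (-0.21 to 0.0495), Rbp4 (-0.10 to 0.0777) and Fgg (-0.0143 to 0.10). With the replicate number it turned for Nid1 (-0.0136 to 0.11), Rbp4 (-0.0470 to 0.0938) and Fgg (-0.0726 to 0.15). Other settings that turned a sign against control were cyclic loess for Hnf4a (-0.0054), Cited1 (0.0050) and Fgg (-2.6e-04), and quantile scaling for Cited1 (0.0019) and Fgg (-0.0029). With the replicate number, quantile scaling and cyclic loess turned Apob (-0.0411 with each), Rbp4 (-0.0759 and -0.0736) and Fgg (-0.0605 and -0.0536), and Rbp4 was at -0.0013 with medians aligned and -0.0050 with the array code block.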
